A study of Mus musculus with 21 samples.

Results

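The 10 genes described here run the passage from G1 into S phase: the D-type cyclins Ccnd1, Ccnd2 and Ccnd3, the E-type cyclins Ccne1 and Ccne2, the CDK inhibitor Cdkn1b (p27), the pocket proteins Rb1, Rbl1 (p107) and Rbl2 (p130), and the transcription factor E2f1. They were chosen by name with earlier results of these data known, as were the lists of related genes below. Each symbol was matched to the Ensembl identifier in the count tables, and all 10 of 51467 genes were found. Nascent and total RNA were measured in mouse V6.5 embryonic stem cells (ESCs), in 3 wild type cultures and in 4 Ddx6 knockout (Ddx6 KO) cultures, which were 2 cultures from each of 2 clones. All 7 cultures, wild type included, grew in serum with LIF and the inhibitors PD0325901 and CHIR99021, and all were labelled with 500 µM 4-thiouridine (4sU) for 30 minutes. No unlabelled sample was analysed here. RNA of a culture was then divided into a 4sU-selected part, which holds newly made (nascent) RNA, and ribosomal RNA-depleted total RNA, and the ratio of total to 4sU reads follows mRNA stability. DDX6 is an RNA helicase that binds the decapping and deadenylation complexes and acts in translational repression. Both clones were isolated after Cas9 editing of the V6.5 line, so 2 cultures of a clone share their edit. The labels number the cultures without saying how separately they were grown, and p-values measure the spread between them, which may be technical.

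In proliferating cells, D-type cyclins with CDK4 or CDK6 and E-type cyclins with CDK2 phosphorylate the pocket proteins, which then release E2F factors to switch on genes of DNA synthesis. Cdkn1b binds and restrains the cyclin-CDK2 complex, and Rbl1 and Rbl2 join repressor E2Fs, above all E2F4. ESCs are known for a short G1, and for microRNAs of the miR-290 and miR-302 clusters that target Rbl2 and the CDK inhibitor Cdkn1a.

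The labels were checked against marker genes before the comparison. Ddx6 total RNA was 345 ± 26.7 CPM (read counts scaled to the size of the library, SD, n = 3) in wild type and 44.2 ± 24.7 (n = 4) in Ddx6 KO, a log2 change of -3.12 ± 0.32 (SE, edgeR adjusted p = 9.2e-06), and its 4sU reads did not pass the test (log2 change -0.41 ± 0.32, edgeR adjusted p = 0.347). All 6 ESC markers were expressed, with a summed total RNA level of 2851 to 2950 CPM in wild type and 3737 to 3947 CPM in Ddx6 KO. In 4sU the sum was 4415 to 4854 CPM in wild type and 5266 to 5645 CPM in Ddx6 KO. Such a sum does not hold for each marker, as Sox2 fell in 4sU (log2 change -0.65, edgeR adjusted p = 7.1e-16) and Klf4 did not pass (0.03, edgeR adjusted p = 0.667). Of 8 primed and lineage markers, 6 were below 3 CPM in every total RNA library. The sum over all 8 was 16.1 to 21.7 CPM in wild type against 9.81 to 11.1 CPM in Ddx6 KO. Of the other 2, Otx2 fell (log2 change -2.53, edgeR adjusted p = 7.9e-15) and Gata4 rose (0.65, edgeR adjusted p = 0.0284) in total RNA. Of 7 fibroblast markers, Col1a2, Col3a1, Postn, Dcn and Lum were below 3 CPM in every library, and Col1a1 and Thy1 were not. The sum over all 7 was 3.14 to 5.34 CPM in wild type and 11.3 to 13.1 CPM in Ddx6 KO total RNA. The part of such cells in the results was not tested. Libraries held 2441639 to 3570192 reads in 4sU and 5724179 to 7369651 in total RNA, and cultures of a genotype correlated with a Spearman rho of 0.982 to 0.995. Bulk RNA gives a mean over cells, in which fewer cells of a type, such as those in G1, and less RNA per cell cannot be told apart.

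Levels below are CPM on library totals, and changes are the log2 ratio of Ddx6 KO to wild type, fitted for 4sU and total RNA together in edgeR with TMM scaling (a gene passes at an adjusted p below 0.05 over the 14518 genes tested). TMM factors were 0.925 to 0.942 in wild type and 1.03 to 1.07 in Ddx6 KO libraries, so a fitted change in 4sU or total RNA lies below the change in CPM. In total over 4sU the median fitted change lay above that without TMM (-0.09 against -0.14). The median change over all genes tested was 0.00 in 4sU, -0.10 in total RNA and -0.09 in total over 4sU. With TMM within each assay the medians were 0.00, -0.01 and 0.00, and without TMM they were 0.21, 0.06 and -0.14. Of the genes that passed, 49.4%, 38.6% and 30.7% rose, which became 49.7%, 50.8% and 56.1% with TMM within each assay, 74.1%, 60.3% and 20.3% without TMM, and 44.2%, 41.4% and 44.9% in DESeq2.

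MicroRNA seed matches in these transcripts are shown here because DDX6 is known as a partner of the microRNA machinery. Any effect of a match on stability was not tested here. The study reported that targets of ESC microRNAs, taken as a group, changed little in stability in Ddx6 KO. The mature microRNAs are from RefSeq (GRCm38.p6), with the seed (bases 2 to 8) in capitals. The ESC microRNAs share the seed AAGUGCU, and those of the miR-17 family share AAAGUGC, which is shifted by a base.
miR-291a-3p: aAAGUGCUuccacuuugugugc
miR-294-3p: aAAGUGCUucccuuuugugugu
miR-295-3p: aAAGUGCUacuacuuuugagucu
miR-302b-3p: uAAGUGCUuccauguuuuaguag
miR-302d-3p: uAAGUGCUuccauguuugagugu
miR-17-5p: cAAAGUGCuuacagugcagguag
miR-20a-5p: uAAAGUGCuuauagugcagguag
miR-106a-5p: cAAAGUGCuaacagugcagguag
The matching words, AGCACTT and GCACTTT, were sought on the transcript strand of the 3′ UTR of 1 principal protein-coding transcript of each gene (that with the longest UTR) (Gencode M21, GRCm38), and they overlap where AGCACTTT occurs. Either word was present in 22.6% of the 11960 UTRs of tested genes. It was present in 6 of the 10 genes, Ccnd1, Ccnd2, Rb1, Rbl1, Rbl2 and E2f1, and in none of Ccnd3, Ccne1, Ccne2 and Cdkn1b. Matches are shown with the word in capitals.
Ccnd1, chr7:144931670-144931695, minus strand: attccatttcaaAGCACTTTtggtca
Ccnd2, chr6:127129334-127129359, minus strand: ttccattagaaaAGCACTTTgaaaat
Rb1, chr14:73196355-73196379, minus strand: tacaacccaagtGCACTTTttaatg
Rbl1, chr2:157147471-157147496, minus strand: ttgcctgatcaaAGCACTTTtggatt
Rbl2, chr8:91123139-91123163, plus strand: gtgtaattggtgGCACTTTatggct
Rbl2, chr8:91123200-91123224, plus strand: atatttatgatgGCACTTTctatgg
Rbl2, chr8:91123818-91123842, plus strand: atttttcaataaAGCACTTataaat
E2f1, chr2:154560206-154560230, minus strand: tgggctctaactGCACTTTtggtgt
E2f1, chr2:154559691-154559715, minus strand: accctccagtctGCACTTTgatttg
Rbl2 held the most, with 3 in a UTR of 1398 bases, of which the last begins at base 1384, and E2f1 held 2 in 1281 bases. Of UTRs within 20% of the length of that of Rbl2, 24.6% held either word. For Ccnd1 and Ccnd2, whose UTRs are 2676 and 5173 bases long, the shares of UTRs of like length were 41.1% and 67.1%. A match is a run of letters and does not show binding.

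In nascent RNA, 3 of the 10 genes rose (Ccnd2, Ccne1, Cdkn1b) and 2 fell (Ccnd1, E2f1), beside 20.5% and 21.0% of all genes tested. In total RNA, 5 rose (Ccnd2, Ccne1, Ccne2, Cdkn1b, Rbl2) and 3 fell (Ccnd1, Ccnd3, E2f1), beside 19.5% and 31.0%. In total over 4sU, 2 rose (Ccne2, Rbl2) and 1 fell (Ccnd3), beside 3.77% and 8.51%. The median log2 change of the 10 genes was 0.04 in 4sU, 0.25 in total RNA and -0.02 in total over 4sU. Of the 10 genes, none but Ccnd2 passed with a change of more than 2-fold, in 4sU and total RNA, and none did in total over 4sU, beside 10.9%, 10.1% and 1.08% of all genes. Ccnd2 entered the test through its Ddx6 KO libraries alone. Nothing is therefore read from that count, or from the place of Ccnd2 in the counts of genes that rose and of separate groups. On TMM-scaled values, the 4 Ddx6 KO cultures lay wholly on one side of the 3 wild type cultures for 5 of the 10 genes in 4sU, 8 in total RNA and 4 in total over 4sU, beside 41.7%, 52.4% and 22.9% of all genes. Rb1 and Rbl1 passed no test. Without TMM, 5 rose and 1 fell in 4sU, 6 rose and 2 fell in total RNA, and 2 rose and 2 fell in total over 4sU, and with TMM within each assay 3 rose and none fell in total over 4sU.

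**Figure D1:**
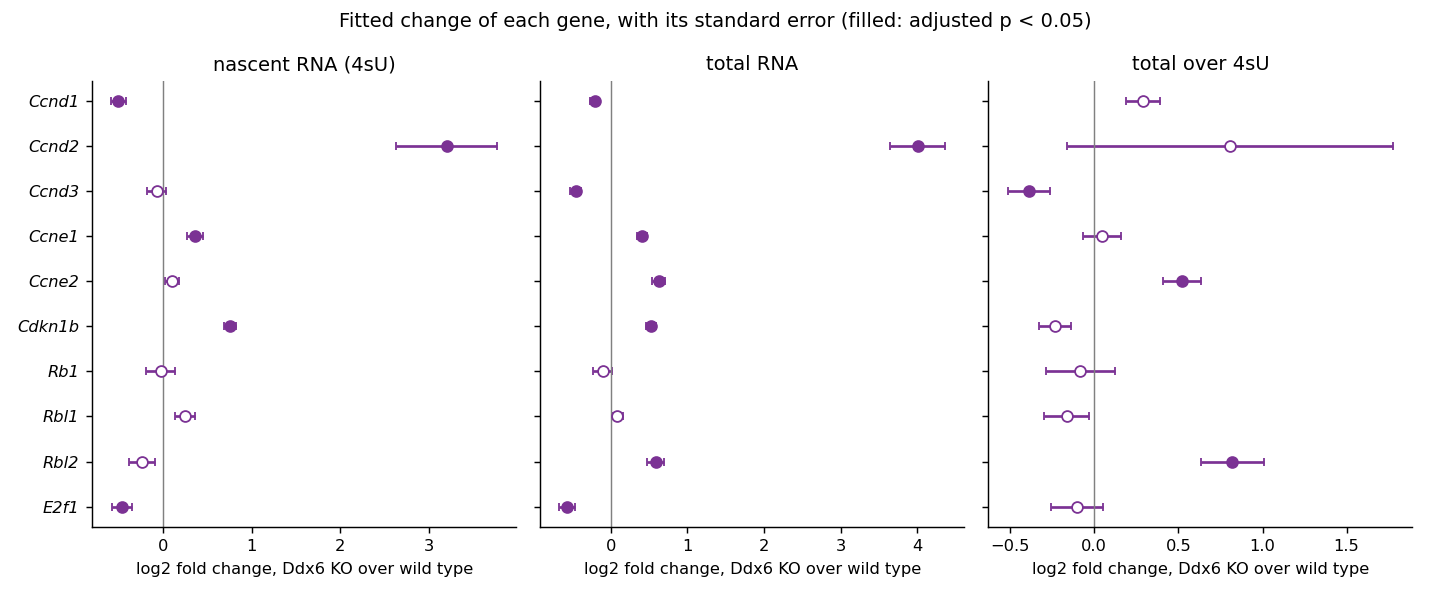
Log2 fold change of Ddx6 KO over wild type for each gene (horizontal axis, each panel with its own scale) in nascent RNA, total RNA and total over 4sU, with the standard error as bars; filled points passed at an adjusted p below 0.05. Ccnd2 stands far to the right in nascent (3.20) and total RNA (4.01), with a wide bar in total over 4sU, where Rbl2 (0.82) and Ccne2 (0.52) rose.

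The D-type cyclins, which carry mitogen signals to CDK4 and CDK6, moved in different ways. Ccnd1 (ENSMUSG00000070348.5, chr7:144929931-144939925, minus strand) gave 108.5, 107.6 and 101.3 CPM of 4sU reads in the wild type cultures and 88.0, 85.9, 86.1 and 85.1 CPM in Ddx6 KO (here and below clone 1 before clone 2). The groups were separate, and the log2 change was -0.50 ± 0.08 (SE, edgeR adjusted p = 6.4e-07). Its total RNA was 147, 149 and 169 CPM in wild type and 148, 141, 149 and 161 CPM in Ddx6 KO, so in CPM the groups overlapped. With TMM scaling the total RNA change was -0.21 ± 0.06 (edgeR adjusted p = 0.0032), and it did not pass without TMM (-0.05, edgeR adjusted p = 0.489), with TMM within each assay (-0.12, adjusted p = 0.103), without the filter on low counts (-0.11, adjusted p = 0.277), with clone 2 alone (-0.15, adjusted p = 0.112) or without wild type culture 3 (-0.14, adjusted p = 0.0819). The log2 ratio of total to 4sU was 0.42, 0.46 and 0.74 in wild type and 0.79, 0.74, 0.84 and 0.95 in Ddx6 KO. The change of the ratio, 0.29 ± 0.10, just missed the threshold (edgeR adjusted p = 0.0501). It passed under 10 of 20 alternatives (adjusted p 0.0089 to 0.537 over all), among them with each culture's 4sU and total libraries paired as a block (adjusted p = 0.0404), without wild type culture 3 (adjusted p = 0.0127) and without clone 1 culture 2 (adjusted p = 0.0464).

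Ccnd2 (ENSMUSG00000000184.12, chr6:127125162-127152193, minus strand) was at the limit of detection in wild type and clearly read in every Ddx6 KO culture. In 4sU it had 0, 2 and 2 reads in wild type and 15, 17, 11 and 25 reads in Ddx6 KO, and in total RNA 1, 3 and 6 reads against 68, 60, 65 and 66 reads. In CPM of total RNA these were 0.17, 0.46 and 0.85 in wild type and 11.3, 8.20, 8.82 and 10.6 in Ddx6 KO. Pooled over cultures, the ratio of Ddx6 KO to wild type was 11.1 in 4sU (95% exact interval 4.13 to 41.8) and 18.6 in total RNA (9.93 to 39.1), intervals that cover counting error only. The fitted log2 changes, which depend on a prior count at such levels, were 3.20 ± 0.57 in 4sU (edgeR adjusted p = 5.1e-06) and 4.01 ± 0.36 in total RNA (edgeR adjusted p = 1.6e-14). That Ccnd2 differed follows in part from the filter. The ratio of total to 4sU rests on these few wild type reads, and its change of 0.81 ± 0.97 did not pass (edgeR adjusted p = 0.674). Per kilobase of gene length Ccnd2 stayed the smallest D-type cyclin in Ddx6 KO, with 1.51 ± 0.21% of their total RNA against 0.07 ± 0.04% in wild type.

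Ccnd2 and Cdkn1b lie on chromosome 6, whose genes were higher as a whole in Ddx6 KO. The median log2 change of its 735 tested genes was 0.53 in 4sU and 0.43 in total RNA, against -0.02 and -0.12 for genes of the other chromosomes. Of those 735 genes, 241 had a larger change than Cdkn1b in 4sU and 305 in total RNA. The part of this chromosome-wide difference in their changes was not tested.

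Ccnd3 (ENSMUSG00000034165.16, chr17:47505051-47599691, plus strand) fell in total RNA with little difference in nascent RNA. Its 4sU level was 46.3, 49.8 and 35.8 CPM in wild type and 40.04, 49.2, 47.4 and 55.5 CPM in Ddx6 KO, overlapping groups with a log2 change of -0.07 ± 0.11 (edgeR adjusted p = 0.642) that was 0.14 without TMM. Total RNA was 160, 165 and 164 CPM in wild type and 131, 137, 129 and 132 CPM in Ddx6 KO, a clear separation (log2 change -0.46 ± 0.07, edgeR adjusted p = 3.8e-08). In wild type Ccnd3 had the highest total over 4sU of the 10 genes, with log2 ratios of 1.77, 1.71 and 2.18, at percentile 96.3 of all genes tested. In Ddx6 KO the ratios were 1.75, 1.499, 1.48 and 1.28, and the change of -0.39 ± 0.13 passed narrowly (edgeR adjusted p = 0.0339). That call was lost under 13 of 20 alternatives (adjusted p 0.0119 to 0.377), among them without wild type culture 1 (0.0514) or culture 3 (0.295), without clone 1 culture 2 (0.0664), and without clone 2 culture 1 (0.0754) or culture 2 (0.152).

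**Figure D2:**
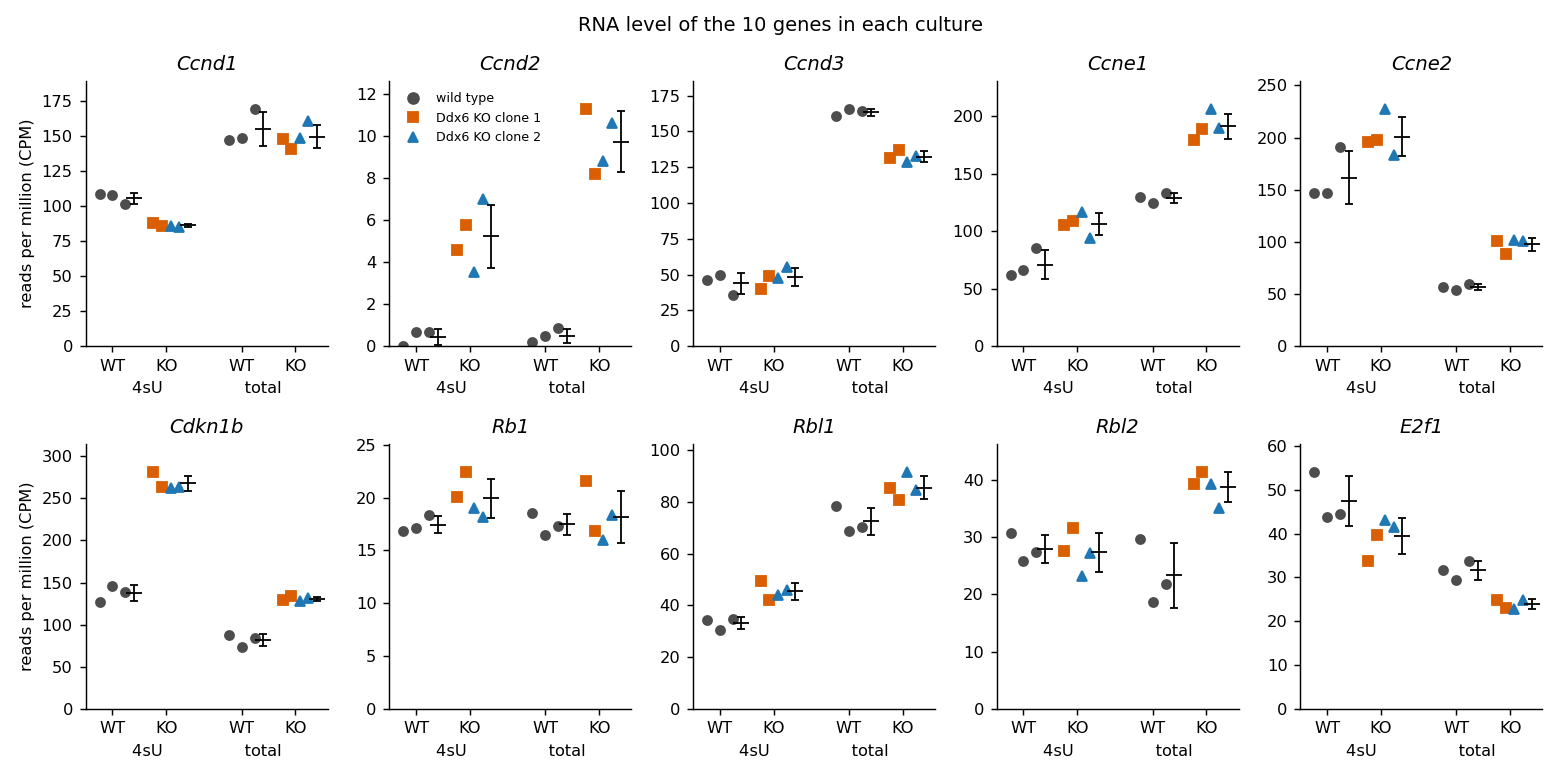
CPM on library totals (vertical axes from 0, each gene with its own scale) for each culture in 4sU and total RNA; circles are wild type, squares clone 1 and triangles clone 2 of Ddx6 KO, and the bars give the mean and SD. Ccnd2 lies under 1 CPM in wild type and between 3.55 and 11.3 CPM in Ddx6 KO, and Rb1 shows no separation.

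Per kilobase, the D-type cyclins of wild type nascent RNA were 61.3 ± 3.22% Ccnd1 and 38.6 ± 3.27% Ccnd3 (SD, n = 3). In Ddx6 KO nascent RNA they were 53.2 ± 3.73% Ccnd1 and 45.01 ± 3.49% Ccnd3 (n = 4). In total RNA the order was the other way round, with Ccnd3 at 61.7 ± 1.78% in wild type and 56.6 ± 1.77% in Ddx6 KO. These shares are taken within a library and do not depend on the scaling between libraries. The 4 Ddx6 KO cultures had a lower share of Ccnd1 in nascent RNA (49.0% to 58.0%) than any wild type culture (58.5% to 64.8%), by a margin that was small beside the spread.

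The E-type cyclins, which activate CDK2 at the start of S phase, both rose in total RNA and differed in where the change was seen. Ccne1 (ENSMUSG00000002068.16, chr7:38097984-38107534, minus strand) had 61.4, 66.3 and 84.9 CPM of 4sU reads in wild type and 105, 109, 117 and 94.1 CPM in Ddx6 KO. Total RNA was 129, 124 and 133 CPM against 179, 189, 206 and 190 CPM. In CPM all 4 Ddx6 KO cultures were above the wild type cultures in both, and on the TMM scale this held in total RNA and not in 4sU. The log2 changes were 0.37 ± 0.09 in 4sU (edgeR adjusted p = 0.00080) and 0.41 ± 0.07 in total RNA (edgeR adjusted p = 7.8e-07), and the 4sU change did not pass in the re-sequencing run alone (0.29, adjusted p = 0.112). The ratio of total to 4sU overlapped between the groups (change 0.05 ± 0.11, edgeR adjusted p = 0.864, and -0.0038 without TMM).

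Ccne2 (ENSMUSG00000028212.16, chr4:11191351-11204779, plus strand) had 147, 147 and 191 CPM of 4sU reads in wild type and 195, 197, 227 and 184 CPM in Ddx6 KO, where wild type culture 3 reached into the Ddx6 KO range. The log2 change in 4sU was 0.10 ± 0.08 (edgeR adjusted p = 0.307), and it passed without wild type culture 3 (0.24, adjusted p = 0.0183) and without TMM (0.31, adjusted p = 0.00097). Total RNA was 56.6, 54.0 and 59.7 CPM in wild type and 100.7, 88.5, 101.5 and 100.8 CPM in Ddx6 KO, well apart, with a log2 change of 0.63 ± 0.08 (edgeR adjusted p = 5.2e-09). The log2 ratio of total to 4sU was -1.39, -1.44 and -1.66 in wild type, the lowest of the 10 genes and at percentile 19.7 of all genes tested. It was -0.91, -1.12, -1.10 and -0.83 in Ddx6 KO, above every wild type value, and the change of 0.52 ± 0.11 passed (edgeR adjusted p = 0.0010) and passed under all 20 alternatives (0.43 to 0.61).

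Because of these ratios the make-up of the pair depends on the RNA measured. Per kilobase, Ccne2 was 58.8 ± 0.99% of the E-type cyclins in wild type nascent RNA and 21.6 ± 0.30% in total RNA (SD, n = 3). In Ddx6 KO it was 54.2 ± 0.92% and 24.3 ± 1.46% (n = 4). The Ddx6 KO cultures were below wild type in nascent RNA (53.1% to 55.0% against 58.1% to 59.9%) and above it in total RNA (22.7% to 26.0% against 21.4% to 21.9%). Summed per kilobase, both E-type cyclins together were at 82.1 ± 3.05 RPKM in wild type total RNA and 126 ± 6.14 RPKM in Ddx6 KO.

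Cdkn1b, an inhibitor of cyclin-CDK2, rose in both nascent and total RNA. The gene (ENSMUSG00000003031.14, chr6:134920401-134925513, plus strand) had 127, 146 and 139 CPM of 4sU reads in wild type and 281, 263, 263 and 264 CPM in Ddx6 KO. Total RNA was 87.3, 73.6 and 84.6 CPM in wild type and 129, 134, 129 and 132 CPM in Ddx6 KO, again with no overlap. The log2 changes were 0.75 ± 0.07 in 4sU (edgeR adjusted p = 5.2e-14) and 0.52 ± 0.07 in total RNA (edgeR adjusted p = 1.2e-09), which are 0.22 and 0.09 above the medians of chromosome 6. The ratio of total to 4sU was -0.55, -0.99 and -0.71 in wild type and -1.08, -0.95, -0.97 and -0.96 in Ddx6 KO, and wild type culture 2 lay inside the Ddx6 KO range. Its change of -0.23 ± 0.10 did not pass (edgeR adjusted p = 0.0991), but did without wild type culture 2 (-0.35, adjusted p = 0.0334) and without TMM (-0.28, adjusted p = 0.0323).

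**Figure D3:**
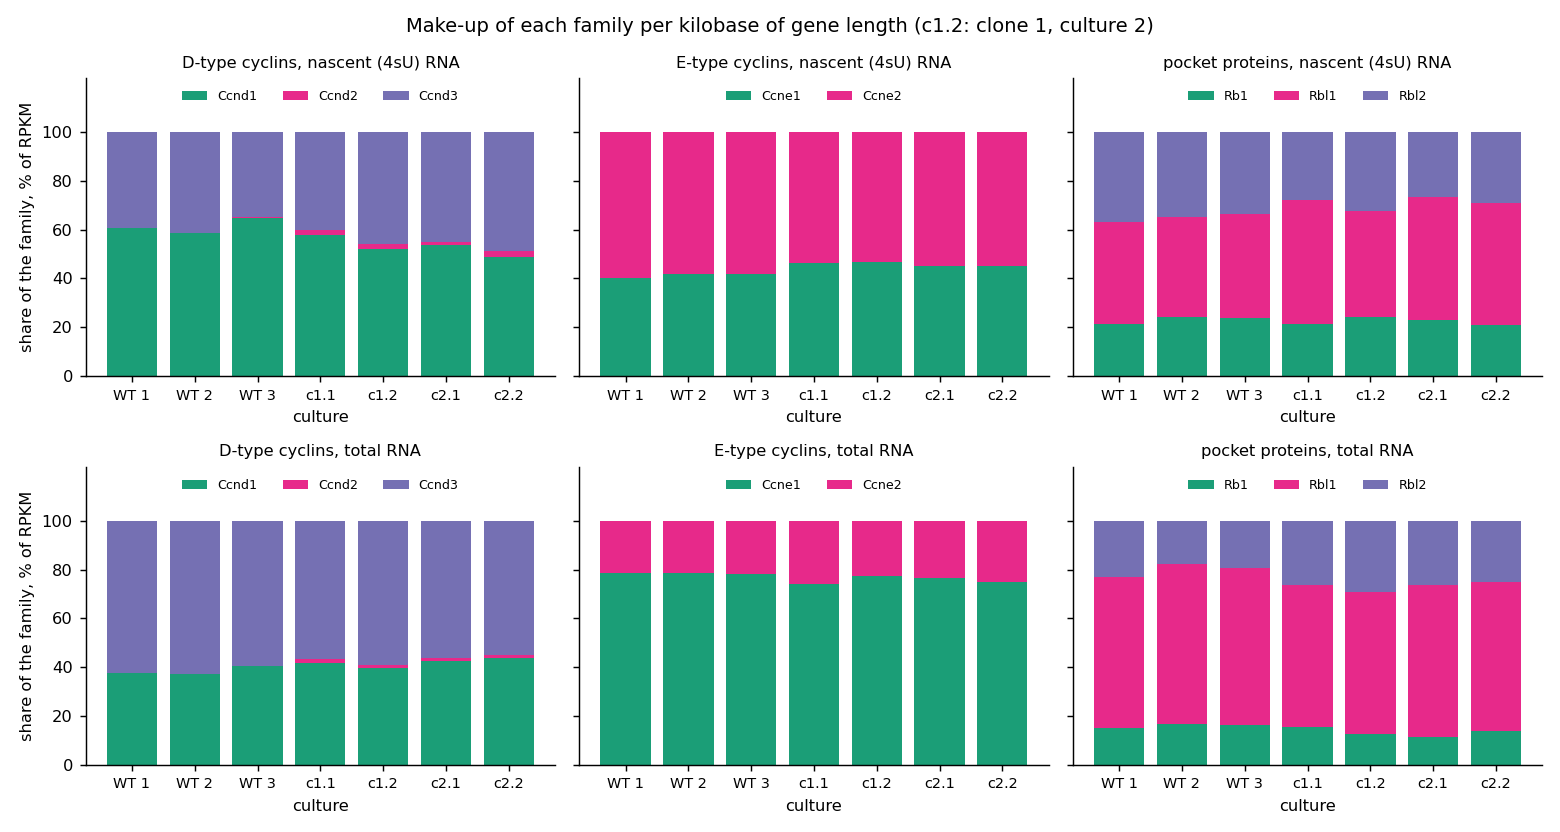
Share of each gene in the reads per kilobase (RPKM) of its family, in percent, for each culture in nascent (upper row) and total RNA (lower row); bars of a panel add up to 100%. Ccne2 makes up over 50% of the E-type cyclins in nascent RNA and 21.4% to 26.0% in total RNA, and the Rbl2 share of the pocket proteins in total RNA is higher in every Ddx6 KO culture than in wild type.

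Among the pocket proteins, the brakes on E2F, Rbl2 rose in total RNA and in total over 4sU, while Rb1 and Rbl1 passed in no comparison. Rbl2 (ENSMUSG00000031666.15, chr8:91070057-91123844, plus strand) had 30.7, 25.9 and 27.4 CPM of 4sU reads in wild type and 27.6, 31.6, 23.2 and 27.2 CPM in Ddx6 KO, with overlap (log2 change -0.23 ± 0.15, edgeR adjusted p = 0.206). Total RNA was 29.7, 18.6 and 21.8 CPM in wild type and 39.2, 41.4, 39.4 and 35.0 CPM in Ddx6 KO. All Ddx6 KO cultures were above wild type, by a log2 change of 0.59 ± 0.11 (edgeR adjusted p = 1.3e-05). The log2 ratio of total to 4sU was -0.06, -0.47 and -0.32 in wild type and 0.55, 0.41, 0.80 and 0.39 in Ddx6 KO, so the gene went from percentile 40.4 to percentile 68.2 of all genes tested. The change of 0.82 ± 0.19 passed (edgeR adjusted p = 0.0015) and passed under 19 of 20 alternatives (0.54 to 1.02). The exception used only the reads of the re-sequencing run for 4sU (0.54, edgeR adjusted p = 0.177).

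Rbl1 (ENSMUSG00000027641.13, chr2:157145893-157204534, minus strand) had 34.4, 30.3 and 34.8 CPM of 4sU reads in wild type and 49.4, 42.1, 43.9 and 45.9 CPM in Ddx6 KO. The groups were separate, yet the change on the TMM scale did not pass (log2 change 0.25 ± 0.11, edgeR adjusted p = 0.0688), and it passed without TMM (0.46, adjusted p = 0.00063) and with scaling that left out chromosome 6 (0.28, adjusted p = 0.0449). Total RNA was 78.3, 68.5 and 70.4 CPM against 85.4, 80.6, 91.5 and 84.6 CPM (0.09 ± 0.07, edgeR adjusted p = 0.343), which likewise passed without TMM (0.24, adjusted p = 0.0050) and with TMM within each assay (0.18, adjusted p = 0.0394). Rb1 (ENSMUSG00000022105.6, chr14:73183673-73325822, minus strand) had 16.8, 17.2 and 18.4 CPM of 4sU reads in wild type and 20.02, 22.4, 19.03 and 18.2 CPM in Ddx6 KO. Its total RNA was 18.5, 16.5 and 17.4 CPM and 21.5, 16.8, 16.01 and 18.3 CPM, with overlap in both. The log2 changes of Rb1 were -0.02 ± 0.16 in 4sU (edgeR adjusted p = 0.931) and -0.10 ± 0.13 in total RNA (edgeR adjusted p = 0.516), with 95% intervals of -0.34 to 0.30 and -0.35 to 0.14, and the 4sU change was 0.18 without TMM.

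Per kilobase, Rbl1 was the main pocket protein transcript in total RNA, with 63.8 ± 2.08% of the family in wild type and 59.9 ± 2.10% in Ddx6 KO. Rbl2 held 20.1 ± 2.77% in wild type (17.7% to 23.1%) and 26.8 ± 1.84% in Ddx6 KO (25.02% to 29.4%). Rb1 held 16.1 ± 0.73% and 13.3 ± 1.69%. In nascent RNA the share of Rbl2 was instead lower in Ddx6 KO, 29.0 ± 2.46% against 35.0 ± 1.75%, with Rbl1 at 48.7 ± 3.46% against 41.9 ± 0.94%.

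**Figure D4:**
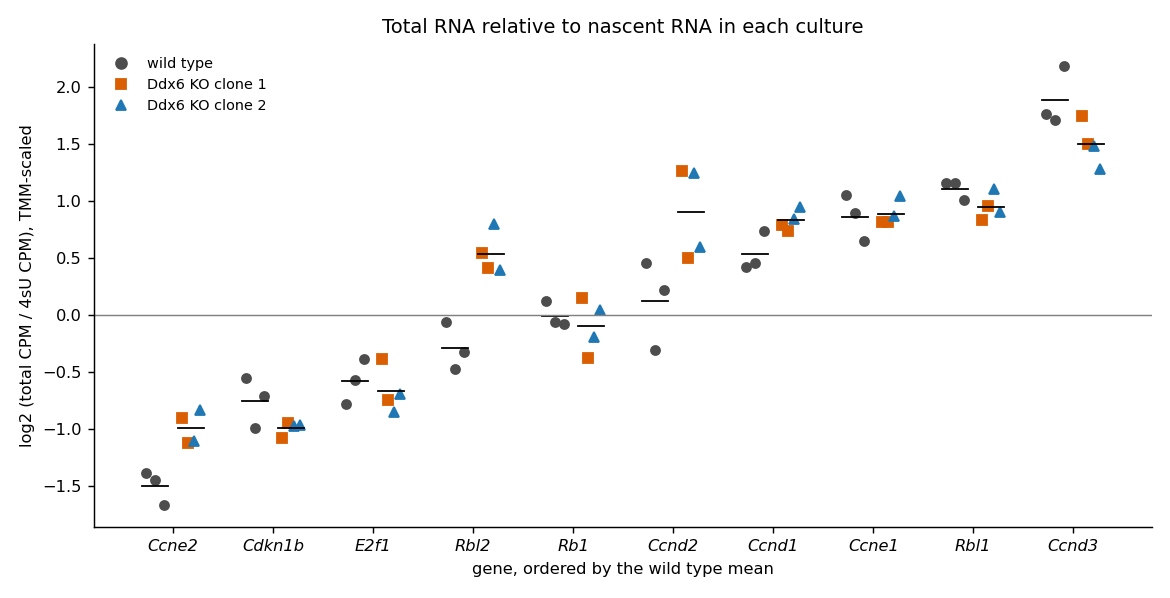
Log2 ratio of total to 4sU reads (TMM-scaled CPM with 0.5 CPM added) for each culture, genes ordered by their wild type mean; circles are wild type, squares clone 1 and triangles clone 2 of Ddx6 KO, and lines are means. Ccne2 and Rbl2 lie higher in every Ddx6 KO culture than in any wild type culture, and Ccnd3 has the highest wild type mean, 1.89.

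E2f1, an activator E2F that drives genes of DNA synthesis and is itself held by Rb1, was lower in both kinds of RNA. The gene (ENSMUSG00000027490.17, chr2:154559407-154569892, minus strand) had 54.1, 43.7 and 44.5 CPM of 4sU reads in wild type and 33.7, 39.7, 43.2 and 41.5 CPM in Ddx6 KO, close but without overlap. Total RNA was 31.6, 29.5 and 33.9 CPM in wild type and 24.8, 23.1, 22.8 and 24.9 CPM in Ddx6 KO. The log2 changes were -0.46 ± 0.12 in 4sU (edgeR adjusted p = 0.00087) and -0.57 ± 0.10 in total RNA (edgeR adjusted p = 6.0e-06), and the 4sU change did not pass without TMM (-0.25, adjusted p = 0.0612) or in the re-sequencing run alone (-0.37, adjusted p = 0.0749). The ratio of total to 4sU changed by -0.11 ± 0.15 (edgeR adjusted p = 0.740).

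Across the 10 genes, levels per kilobase in wild type total RNA were highest for Ccnd3 (66.7 ± 1.04 RPKM) and Ccne1 (64.4 ± 2.16 RPKM), which did not differ beyond their spread, and then Ccnd1 (41.5 ± 3.26 RPKM). Cdkn1b (17.98 ± 1.60 RPKM) and Ccne2 (17.7 ± 0.89 RPKM) did not differ beyond their spread, nor did Rbl2 (4.74 ± 1.16 RPKM) and Rb1 (3.75 ± 0.22 RPKM), with Rbl1 (14.9 ± 1.06 RPKM) and E2f1 (10.03 ± 0.70 RPKM) between these pairs and Ccnd2 last (0.07 ± 0.05 RPKM). In Ddx6 KO total RNA, Ccne1 was highest (95.5 ± 5.47 RPKM), followed by Ccnd3 (54.1 ± 1.49 RPKM) and Ccnd1 (40.01 ± 2.22 RPKM). In wild type nascent RNA the order began instead with Ccne2 (50.5 ± 7.86 RPKM), Ccne1 (35.4 ± 6.20 RPKM), Cdkn1b (30.2 ± 2.11 RPKM) and Ccnd1 (28.3 ± 1.05 RPKM), and in Ddx6 KO with Ccne2 (62.8 ± 5.76 RPKM), Cdkn1b (58.8 ± 1.97 RPKM) and Ccne1 (53.1 ± 4.71 RPKM). The ranges of Cdkn1b overlapped those of Ccne1 and Ccnd1 in wild type, and those of all 3 genes overlapped in Ddx6 KO.

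The 2 clones were compared for the 10 genes. In clone 2 against clone 1, no gene passed in 4sU (edgeR, beside 0.165% of all genes), in total RNA (0.296%) or in total over 4sU (0.00689%), and none had an unadjusted p below 0.05. DESeq2 and limma-voom likewise called none. The largest difference in 4sU was that of Rbl2, -0.22 ± 0.19 (edgeR adjusted p = 0.905), and in total over 4sU that of Ccnd3, -0.25 ± 0.16 (edgeR unadjusted p = 0.117), beside the narrow genotype change of that gene of -0.39. Outside Ccnd2, the SE of a difference between clones was 0.08 to 0.20 in 4sU, 0.08 to 0.16 in total RNA and 0.12 to 0.26 in total over 4sU.

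The other genes of the pathway were taken from a list of 31, all of which were tested. In 4sU 4 rose and 10 fell (10 and 5 without TMM), in total RNA 5 rose and 12 fell (8 and 9), and in total over 4sU 2 rose and 3 fell (3 in all without wild type culture 1), with median log2 changes of -0.15, -0.09 and -0.02. Beside these counts stand 20.5% of all genes that rose and 21.0% that fell in 4sU, 19.5% and 31.0% in total RNA, and 3.77% and 8.51% in total over 4sU, so the shares in total over 4sU were near those of all genes. Cdk6, a kinase partner of the D-type cyclins, rose most, by 0.98 ± 0.07 in 4sU (edgeR adjusted p = 3.2e-18) and 1.24 ± 0.07 in total RNA (edgeR adjusted p = 5.3e-23). Its total RNA was 54.9 ± 4.27 CPM in wild type (n = 3) and 145 ± 5.53 CPM in Ddx6 KO (n = 4). Cdk4, the other partner, had overlapping 4sU levels and fell in total RNA from 409.6 ± 10.6 CPM to 299 ± 7.35 CPM (edgeR adjusted p = 1.3e-13), with a change of -0.49 ± 0.09 in total over 4sU (edgeR adjusted p = 0.00014). Cdkn2c (p18), an inhibitor of CDK4 and CDK6, fell by 1.03 on the log2 scale in both kinds of RNA (edgeR adjusted p = 0.0122 in 4sU and 0.00026 in total RNA), at levels of 2.58 to 7.16 CPM. Of the 6 CDK inhibitors in this list, only Cdkn2c passed in 4sU or total RNA, and none passed in total over 4sU. Cdkn1a, named above as a microRNA target, thus passed in no comparison of Ddx6 KO with wild type.

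Among factors that work with the pocket proteins, E2f4, the main E2F partner of Rbl1 and Rbl2, fell in total over 4sU (-0.40 ± 0.11, edgeR adjusted p = 0.0067), whereas E2f3, an activator E2F, rose (0.43 ± 0.10, edgeR adjusted p = 0.0017). In 4sU E2f3 fell (-0.27 ± 0.07, edgeR adjusted p = 0.0012), and in total RNA its change of 0.16 ± 0.07 did not pass (edgeR adjusted p = 0.0528). Lin9, a subunit of the MuvB core of the DREAM complex that Rbl1 and Rbl2 form with E2F4, rose in 4sU (0.33 ± 0.10, edgeR adjusted p = 0.0051), in total RNA (0.85 ± 0.09, edgeR adjusted p = 2.1e-12) and in total over 4sU (0.51 ± 0.13, edgeR adjusted p = 0.0060). Cul1, the scaffold of the SCF ubiquitin ligase that turns over Cdkn1b and cyclin E, rose by 0.88 ± 0.08 in 4sU (edgeR adjusted p = 3.8e-14) and 0.80 ± 0.06 in total RNA (edgeR adjusted p = 4.8e-18), and it too lies on chromosome 6, where 178 and 171 of 735 genes had a larger change. Mybl2, which binds MuvB later in the cycle and is an E2F target, fell by 0.82 in 4sU (edgeR adjusted p = 0.0023) and 0.99 in total RNA (edgeR adjusted p = 0.00011) on the log2 scale, and is counted in both lists. It also differed between the clones, unlike most genes (0.165% in 4sU and 0.296% in total RNA differed). Clone 2 against clone 1 gave -0.39 in 4sU (edgeR adjusted p = 0.0224) and -0.49 in total RNA (edgeR adjusted p = 2.2e-06). In total RNA, 1 of the 6 CDK inhibitors in the list also differed, being lower in clone 2 by more than 2-fold (edgeR adjusted p = 1.4e-06).

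Listed genes known to be switched on by E2F were mostly lower in Ddx6 KO. The list was chosen with earlier results of these data known, so its counts are a description only. E2f1 was lower too, and a link between it and these genes was not tested. Of the list of 10, 1 rose and 7 fell in 4sU, none rose and 9 fell in total RNA, and 2 rose and 2 fell in total over 4sU. Without TMM, 1 rose and 6 fell, none rose and 7 fell, and 1 rose and 3 fell. Over all genes, 20.5% rose and 21.0% fell in 4sU, 19.5% and 31.0% in total RNA, and 3.77% and 8.51% in total over 4sU. The median log2 changes were -0.44, -0.40 and -0.03, beside 0.00, -0.10 and -0.09 for all genes. Mcm3, a subunit of the replicative helicase, fell from 505 ± 56.8 to 351 ± 18.7 CPM in 4sU, a log2 change of -0.73 ± 0.06 (edgeR adjusted p = 5.5e-16), and by 0.64 in total RNA (edgeR adjusted p = 2.7e-15). Cdc6, which loads that helicase, had a change of -0.66 ± 0.07 (edgeR adjusted p = 3.1e-11) and Ccna2, the S phase cyclin, of -0.56 ± 0.06 (edgeR adjusted p = 5.4e-12) in 4sU, and both rose in total over 4sU, by 0.35 and 0.25 (edgeR adjusted p = 0.0121 and 0.0243). Tyms, thymidylate synthase, fell in total RNA (-0.73 ± 0.07, edgeR adjusted p = 7.3e-13) and in total over 4sU (-0.54 ± 0.11, edgeR adjusted p = 0.00040), and Pcna, the polymerase clamp, in total RNA (-0.47 ± 0.06, edgeR adjusted p = 1.5e-09). Rrm1, a subunit of ribonucleotide reductase, was the gene that rose in 4sU (0.35 ± 0.07, edgeR adjusted p = 2.2e-05), and it fell in total over 4sU (-0.40 ± 0.09, edgeR adjusted p = 0.0012).

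**Figure D5:**
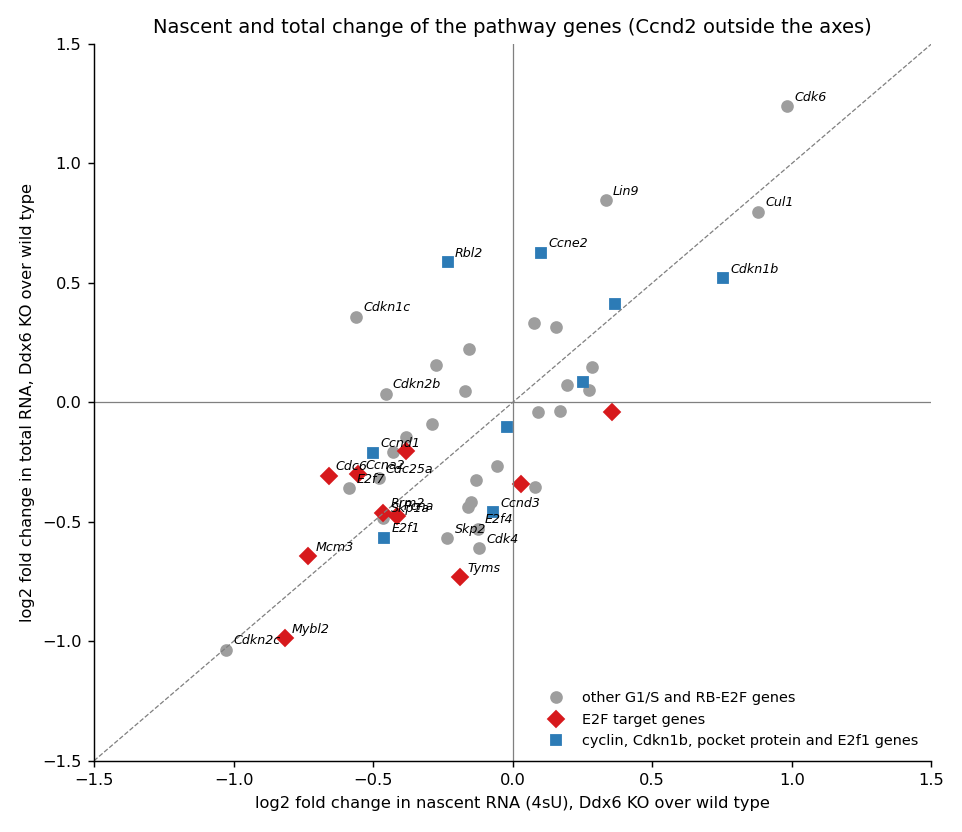
Log2 fold change in total RNA (vertical axis) against that in nascent RNA (horizontal axis), Ddx6 KO over wild type, for the cyclin, Cdkn1b, pocket protein and E2f1 genes without Ccnd2 (squares), the other pathway genes (circles) and E2F target genes (diamonds); the broken line marks equal change in both. Rbl2 and Ccne2 lie above the line, and all 10 E2F targets lie below 0 in total RNA, of which 9 passed the test.

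The promoters of Rbl1, Cdc6 and Mcm3 are shown because each of these E2F-linked genes held an E2F motif in the window from 250 bases before to 50 after the start (RefSeq, GRCm38.p6). The motif was sought as TTTCCCGC, TTTCGCGC, TTTGCCGC and TTTGGCGC and their reverse complements, where capitals mark a match, and words of the set can overlap. Of 32851 windows, 2.26% held a match, and a gene can have several windows. Counted per gene, 2.6% of 27025 genes held a match in any window, as did 1 of 6 of the 10 genes (Rbl1), 8 of 26 pathway genes and 2 of 8 E2F targets (Cdc6 and Mcm3). The 27025 genes are all those with a window and not only the genes tested, so the lists are not set against expressed genes here. Windows follow RefSeq starts, and some lie inside the gene as annotated in Gencode. The E2f1 window (chr2:154569377-154569676) does so, as that gene spans chr2:154559407-154569892 on the minus strand. Its annotated start was therefore not searched.
Rbl1, chr2:157204485-157204784, minus strand: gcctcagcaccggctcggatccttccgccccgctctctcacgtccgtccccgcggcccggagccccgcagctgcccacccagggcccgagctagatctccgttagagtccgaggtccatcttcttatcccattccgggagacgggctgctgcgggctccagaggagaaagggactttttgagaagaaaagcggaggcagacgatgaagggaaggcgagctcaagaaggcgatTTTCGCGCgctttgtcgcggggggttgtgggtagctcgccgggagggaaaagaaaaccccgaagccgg
Cdc6, chr11:98907901-98908200, plus strand: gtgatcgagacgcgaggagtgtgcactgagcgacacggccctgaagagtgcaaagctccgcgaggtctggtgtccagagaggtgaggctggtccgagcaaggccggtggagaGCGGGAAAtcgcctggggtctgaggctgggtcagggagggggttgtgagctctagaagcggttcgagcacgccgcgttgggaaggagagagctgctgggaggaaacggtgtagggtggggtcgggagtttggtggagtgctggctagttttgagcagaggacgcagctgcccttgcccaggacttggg
Mcm3, chr1:20820263-20820562, minus strand: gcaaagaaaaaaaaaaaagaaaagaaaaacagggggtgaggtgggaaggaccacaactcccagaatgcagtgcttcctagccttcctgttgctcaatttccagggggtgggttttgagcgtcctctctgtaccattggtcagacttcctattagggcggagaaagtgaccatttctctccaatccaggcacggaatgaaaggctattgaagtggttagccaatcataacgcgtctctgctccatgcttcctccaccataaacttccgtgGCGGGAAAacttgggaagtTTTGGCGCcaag
The match of Rbl1 begins 18 bases before the RefSeq start and that of Cdc6 138 bases before it, and Mcm3 holds a pair within its first transcribed bases. The Cdc6 window lies inside the gene as annotated in Gencode, which begins at chr11:98907801, so its match is not upstream of that start. In 4sU, Cdc6 and Mcm3 fell and Rbl1 did not pass (0.25). No match in a window says only that these letters are not there.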

How the data were processed

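Nascent (4sU) and total RNA of 7 cultures gave 14 libraries. The authors trimmed reads with cutadapt 1.14, aligned them with STAR 2.5.3a to mm10 and counted uniquely mapped reads per Gencode M14 gene with featureCounts 1.5.3 using strand, and deposited the unnormalized counts. The 4sU libraries were sequenced in 2 runs, whose counts were summed here per library. The 92 spike-in rows held no reads and were left out.

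Genes were kept that reached 3 CPM (counts scaled to library totals) in 3 or more libraries (14518). edgeR 4.0.16 (R 4.3.3, TMM over all libraries, robust quasi-likelihood test) was fitted with genotype, assay and their interaction, which is the change in total over 4sU, and p-values were adjusted by Benjamini-Hochberg over all genes tested. The SE is that of the log2 change, computed from the F statistic. Ratios of single cultures used TMM-scaled CPM with 0.5 CPM added, and RPKM used the gene lengths in the tables. The fits were tested on simulated data.

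Extracted RNA was divided for both libraries, per the methods of the study, and the labels give both the same culture name. The 4sU and total RNA were thus taken as paired by culture in the ratios of single cultures and in the replicate block by culture. The main fit held no term for culture, so its tests were not paired. Deviations of the pair from the group means correlated with a mean r of 0.07 (0.0035 to 0.12 over 7 cultures). Clones were compared in the same way. The alternatives were DESeq2 1.42.0, limma-voom (limma 3.58.1), other scalings and filters, each sequencing run and each clone alone, replicate blocks, leaving out each culture, and a fold threshold. Counts for the pathway and target lists under these alternatives were added after seeing the data.

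The 10 genes and the lists were chosen with earlier results of these data known. Of the lists, genes are named by the 4 largest changes that passed in each comparison, and Cdkn1a because it is a known microRNA target. Sequences are from RefSeq (GRCm38.p6) and Gencode M21, the same build as mm10.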

Additional observations from a re-analysis of the deposited data

Results flagged for a closer look

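Of 30 groups of 4 Ddx6 KO cultures tested for a culture far from the others, 2 had one, where chance gives about 1.5. Ccne2 total RNA was 88.5 CPM in clone 1 culture 2 against 100.7 to 101.5 CPM in the other Ddx6 KO cultures, which is still above the wild type cultures. Cdkn1b 4sU reads were at 281.2 CPM in clone 1 culture 1 against 262.8 to 263.9 CPM in the others.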

How the results depend on the processing

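Over 18 to 20 alternatives per gene and comparison, 516 values kept their direction and side of the threshold, 22 no longer passed, 19 newly passed and 20 changed sign. Some alternatives used fewer reads or cultures, and the cause of a difference was not tested. With a change of more than 2-fold required, 1 of the 10 genes passed in 4sU, 1 in total RNA and 0 in total over 4sU. The gene that passed was Ccnd2, which entered the test through its Ddx6 KO libraries alone, so nothing is read from this. With the re-sequencing run alone, 3 passed in 4sU and 1 in total over 4sU, and 8 of the pathway list passed in 4sU. In total over 4sU, 3 pathway genes passed with the single-end run alone and 3 with clone 1 alone, and 2 targets with clone 2 alone. Leaving out each culture gave 3 to 7 pathway genes there.

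The sign of small changes turned as follows. Without TMM, Ccnd3 in 4sU was 0.14, Ccne1 in total over 4sU -0.0038, and Rb1 0.18 in 4sU and 0.052 in total RNA. With clone 2 alone Ccnd3 in 4sU was 0.039, and with clone 1 alone Ccne1 in total over 4sU was -0.012, Rb1 in 4sU 0.077 and E2f1 in total over 4sU 0.017. In 4sU, Rb1 was 0.0018 with normalization without chromosome 6, 0.033 without the filter and 0.042 in the re-sequencing run, where Rbl2 was 0.051. With TMM within each assay, Rb1 in total over 4sU was 0.0073. Leaving out each culture gave -0.21 to 0.038 for Ccnd3 and -0.079 to 0.032 for Rb1 in 4sU, and -0.079 to 0.13 for Ccne1 and -0.16 to 0.021 for Rb1 in total over 4sU.

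With the culture as a replicate block, 4 of the 10 genes passed in total over 4sU in place of 3, Ccnd1 being added, and no other of their calls changed. Cultures share only a number between genotypes: deviations of same-numbered cultures correlated with a mean r of 0.01 in 4sU and 0.02 in total RNA, and a replicate block by number gave 6, 8 and 4 genes in the 3 comparisons, adding Ccne2 in 4sU (0.20, edgeR adjusted p = 0.0384) and Ccnd1 in total over 4sU (adjusted p = 0.0464). Depth limits Ccnd2 in wild type, with 4 reads in 4sU and 10 in total RNA over all cultures.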
